A study of Mus musculus with 10 samples.

Results

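Aff4, Cytip and Nsrp1 are 3 genes, of 51717 quantified and 12381 tested in this series, whose difference between recent Mpc2 KO and WT progenitors depended on whether transcript length entered the calculation. They were chosen on that measured contrast, so their own differences are given below as descriptions with no test. Together the genes had 19 annotated transcripts in the files, of which 6 held no read in any sample.

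RNA-seq was performed on granulocyte-macrophage progenitors (GMPs), bone marrow cells that give rise to neutrophils and monocytes. The CD45.2+ donor GMPs were sorted from mixed bone marrow chimeras, in which the donor cells share an irradiated host with WT CD45.1+ cells. Each group gave 5 samples, and all donors carried a ROSA26 CreER+/- allele on the C57Bl6/N strain. The labels give all mice as male and all as fed tamoxifen chow for 2 wk until they were taken down. WT donors had the CreER allele alone, so that the controls also had the recombinase and the drug, whereas recent KO donors were Mpc2fl/fl; ROSA26 CreER+/-. The ROSA26 locus is active in nearly all cell types, so that deletion was not limited to GMPs among the donor blood cells. The GMPs of 1 mouse made up a WT sample, whereas those of a pair of mice were pooled for a recent KO sample, and the age of the mice is not given in the sources used here.

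The 3 genes act in transcription, adhesion and splicing. AFF4 is the scaffold of the super elongation complex, which brings the kinase P-TEFb to paused RNA polymerase II and so helps it to elongate. CYTIP is a leukocyte protein that binds cytohesins, the exchange factors for ARF GTPases, and through them limits adhesion by beta2 integrins. NSRP1 is a nuclear speckle protein that regulates alternative splicing. A gene of each kind can be read into several transcripts of very different length, and software that divides reads among transcripts turns those reads into abundances through transcript length.

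Aff4 (ENSMUSG00000049470) spans chr11:53350833-53421830 on the plus strand of GRCm38. Cytip (ENSMUSG00000026832) spans chr2:58129137-58195532 and Nsrp1 (ENSMUSG00000037958) spans chr11:77044292-77078435, both on the minus strand. In each gene a long coding transcript led. Aff4-201 has 10099 bases and 21 exons, Cytip-201 has 6110 bases and 8 exons, and Nsrp1-201 has 3114 bases and 7 exons. The other transcripts with reads had 290 to 3818 bases. The map of exons shows how much of each short transcript lies within the exons of the leading transcript.

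**Figure D1:**
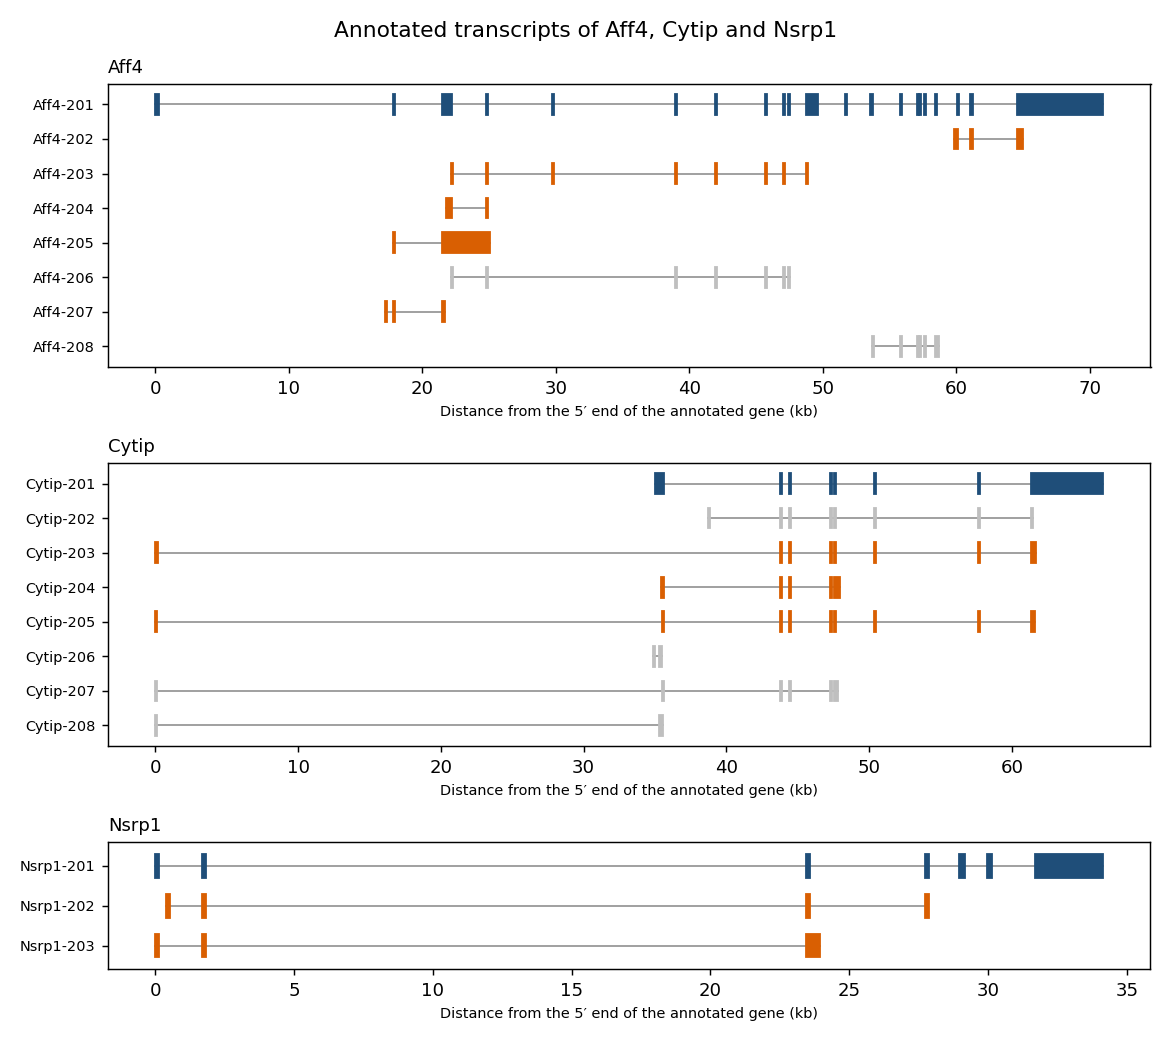
Annotated exons (boxes) and introns (lines) of every transcript of the 3 genes, against distance in kb from the 5′ end of the annotated gene. Blue marks the leading transcript, orange the other transcripts with reads in at least 1 sample, and gray the 6 transcripts with none. Cytip-203 and Cytip-205 start about 35 kb upstream of Cytip-201, and Aff4-204 covers 2 short stretches of Aff4.

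The sequences that set the short transcripts apart from the leading ones are shown first, since the assignment of reads rests on them. They were read from the GENCODE M21 transcripts of GRCm38, 5′ to 3′ on the strand of the gene. Aff4-204 is annotated as a retained intron. Its capitals mark the 77 bases that run on past an exon of Aff4-201 into the intron (chr11:53375634-53375710, plus strand), and the 45 bases in lower case are the end of that exon.
Aff4-204: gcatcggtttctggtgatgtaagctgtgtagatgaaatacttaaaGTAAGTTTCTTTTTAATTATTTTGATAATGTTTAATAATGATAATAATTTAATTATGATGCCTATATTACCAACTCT
The Cytip transcripts below share a first exon upstream of Cytip-201, shown in capitals, and are annotated as processed transcripts without a coding sequence. That exon lies at chr2:58195446-58195517 in Cytip-203 and at chr2:58195446-58195527 in Cytip-205, so that the exon of Cytip-205 is 10 bases longer at its 5′ end. In lower case follow 50 bases of the exon it is joined to, which is the second exon of Cytip-201 in Cytip-203 and the inner part of the first exon of Cytip-201 in Cytip-205.
Cytip-203: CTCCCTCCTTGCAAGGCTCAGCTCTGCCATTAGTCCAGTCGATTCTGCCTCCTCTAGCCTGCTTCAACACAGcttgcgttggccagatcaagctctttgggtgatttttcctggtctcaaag
Cytip-205: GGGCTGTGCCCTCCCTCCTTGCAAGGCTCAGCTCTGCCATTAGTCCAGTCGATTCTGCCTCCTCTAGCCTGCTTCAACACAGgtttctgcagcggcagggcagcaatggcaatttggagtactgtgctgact
Nsrp1-202 is annotated as coding and has its own first exon. The capitals mark the last 8 bases of that exon (chr11:77077974-77077981, minus strand), and the lower case marks the first 50 bases of the second exon, which Nsrp1-201 shares.
Nsrp1-202: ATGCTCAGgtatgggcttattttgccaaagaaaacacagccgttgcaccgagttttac

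Few of the bases of the Aff4 and Cytip transcripts printed above were their own. Of the runs of 31 bases in a transcript, those found in no other annotated transcript of the same gene were counted. Aff4-204 had 0 such runs of 570 and Cytip-205 had 0 of 911, so each stretch of both was also part of another transcript of the gene. Cytip-203 had 24 of 826, across the junction shown above, and Nsrp1-202 had 64 of 260. In contrast, Aff4-201 had 7539 of 10069, Cytip-201 had 4903 of 6044, and Nsrp1-201 had 2831 of 3084. The transcript support level, a grade of the evidence for a model in which 1 is the best and 5 the weakest, was 1 for each leading transcript. It was 3 for Aff4-204, 2 for Cytip-203, 3 for Cytip-205 and 5 for Nsrp1-202. The annotation places the antisense gene Gm13546 within Cytip, and Mir423 and a small nucleolar RNA within Nsrp1. None of the runs of 31 bases in Aff4-204, Cytip-203, Cytip-205 or Nsrp1-202 was found in the annotated transcripts of another gene. In Aff4-205, another retained intron of Aff4, 165 of 3788 runs were also found in other genes. So were 45 of 6044 in Cytip-201, 33 of 3084 in Nsrp1-201 and 5 of 625 in Nsrp1-203. Reads from overlapping genes were not measured.

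Estimated reads totaled 14133706 to 19745405 per WT sample and 14033776 to 19658346 per recent KO sample. Mpc2, the deleted gene, fell from 89.0 ± 26.8 to 32.1 ± 10.2 CPM (counts relative to the TMM-scaled total of a library; mean ± SD, n = 5 per group), with no overlap between groups (log2 fold change −1.46, edgeR's quasi-likelihood test, adjusted p = 0.0156). The call was lost with the length offset (edgeR, adjusted p = 0.0730), in limma on log2(TPM + 1) and log2(TPM + 0.1) (adjusted p = 0.167 and 0.214), with a replicate block (edgeR, adjusted p = 0.0577) and without recent KO replicate 1 (edgeR, adjusted p = 0.05004). Salmon's effective length of a transcript is its length minus an amount, of which the median per library is called the constant here. It was the same for transcripts of 1000 to 2000 and of 3000 to 5000 bases. Single transcripts could depart from it, as did Aff4-205 (3818 bases), with an effective length of 3459 bases in WT replicate 1. The constant was 302 to 304 bases in WT samples other than replicate 1, which stood apart at 344. It was 281 to 288 in recent KO samples other than replicate 2, which stood apart at 327. The group means differed by −17.9 bases (311 ± 18.4 in WT, 293 ± 19.2 in recent KO; SD, n = 5; exact two-sided permutation test, p = 0.230). Without both libraries that stood apart, the difference was −18.2 bases, with no overlap between groups (exact permutation test, p = 0.0286). Those libraries were left out after the values were seen, so that this p-value is only a description. The abundance-weighted transcript length over 6613 other genes with at least 2 kept transcripts averaged 11.02 on the log2 scale in both groups (exact permutation test, p = 0.833). The GMP markers Mpo and Elane were the most abundant of all the markers in both groups. Their 10-gene list summed to 89964 to 127204 CPM in WT and 53665 to 91907 CPM in recent KO samples. Other genes of that list were far lower, such as Kit at 38.3 and 40.3 CPM and Cebpa at 13.9 and 13.4 CPM (means, WT first). Cd34 and Kit had the higher mean in recent KO samples, and the rest of the list had the lower one. Among the latter, Fcgr3 went from 403 to 258 CPM with no overlap between groups.

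Because TPM divides reads by effective length, 1 read of a short transcript counted for far more than 1 read of the leading one. The TPM that 1 read was worth was 32.3 times as high for Aff4-204 as for Aff4-201 (median over the 10 samples). It was 54.9 times as high for Aff4-207, a coding fragment of 464 bases. The ratios to Cytip-201 were 10.5 for Cytip-203 and 9.09 for Cytip-205, and that of Nsrp1-202 to Nsrp1-201 was 48.1. The effective length of Nsrp1-202, with 290 bases shorter than some of the constants above, was only 50.3 to 61.2 bases. The plot of the worth of 1 read by effective length shows this for all 3 genes.

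**Figure D2:**
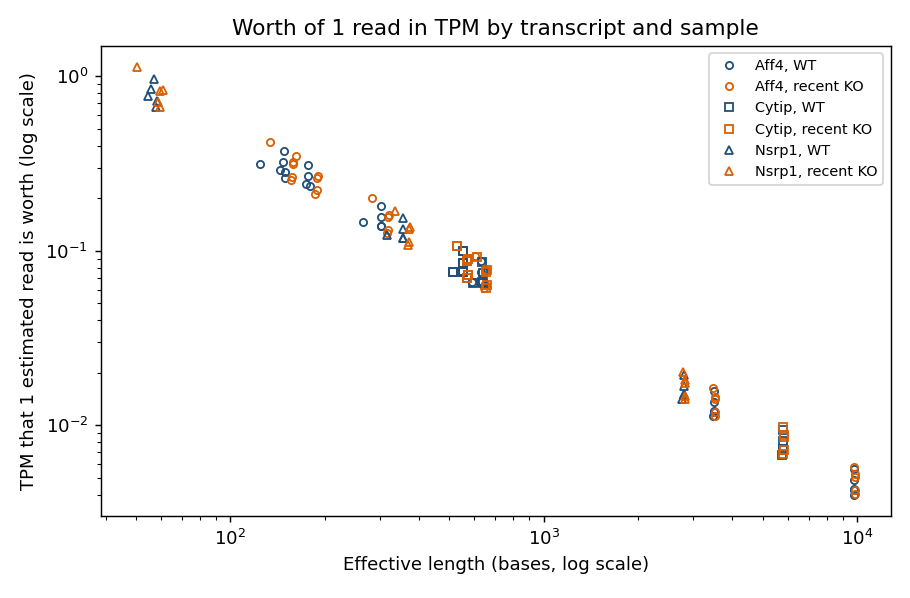
TPM that 1 estimated read is worth (vertical, log scale) against effective length in bases (horizontal, log scale), 1 point for each transcript with reads in at least 1 sample and each sample. Circles are Aff4, squares Cytip and triangles Nsrp1, with WT in blue and recent KO in orange. Both groups lie along one falling band, from Nsrp1-202 at the upper left to Aff4-201 at the lower right.

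Nearly all Aff4 reads went to Aff4-201 in both groups, and the little that did not was smaller in recent KO samples. The summed Aff4 reads were 137, 158, 139, 99 and 171 in WT replicates 1 to 5, and 88, 90, 138, 140 and 139 in recent KO replicates 1 to 5. Aff4-201 held 124, 141, 128, 91.1 and 152 of the WT reads. It held 85.9, 85.1, 138, 130 and 135 of the recent KO reads. The groups overlapped in both quantities, and in bulk samples fewer cells of a type and less RNA per cell cannot be told apart.

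As a share of the Aff4 reads, Aff4-201 took 90.3, 89.4, 91.9, 92.0 and 88.6% in WT replicates 1 to 5. It took 97.6, 94.5, 100, 93.1 and 96.9% in recent KO replicates 1 to 5. Every recent KO share thus lay above every WT share, by as little as 93.1 against 92.0%. The exact Clopper-Pearson 95% interval of a single share was wide at this depth, for example 84.7 to 96.4% for WT replicate 4 and 87.3 to 96.5% for recent KO replicate 4. These intervals cover counting error only, since amplified reads without molecular identifiers are not independent molecules. The means were 90.4 ± 1.52% in WT and 96.4 ± 2.69% in recent KO samples (SD, n = 5), a difference of 5.98 percentage points. Of the 3 genes, only Aff4 had leading shares that did not overlap between groups. Among all 8679 genes examined in this way the leading share did not overlap in 87 (1%), and in 57 of them (0.657%) it was higher in recent KO samples.

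The rest of the Aff4 reads went to transcripts with a handful of reads each. Aff4-204, the retained intron above, held 9.22, 4.01, 4.28, 2.38 and 10.6 reads in WT replicates 1 to 5. In recent KO samples it held 0 reads in 4 samples and 2.02 reads in replicate 4. Although the groups did not overlap, the lowest WT value and the highest recent KO value differed by less than 1 read, and both were under 3 reads. No background over other transcripts was computed for this. By counting error alone, a count of 0 allows a share of up to 3.41 and 3.33% of the Aff4 reads in recent KO replicates 1 and 2. In replicates 3 and 5 it allows up to 2.17 and 2.16%. Since WT replicates 2, 3 and 4 had shares of 2.54, 3.08 and 2.40%, shares of that size were not detectable in recent KO replicates 1 and 2. The limit leaves out how reads were divided among overlapping transcripts, and Aff4-204 had no run of bases of its own. A 0 thus sets no bound on its true share in any recent KO sample.

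Aff4-205, a longer retained intron of 3818 bases that contains the bases in capitals above, held 4.09, 11.0, 2.68, 3.24 and 8.89 reads in WT replicates 1 to 5. It held 2.10, 4.93, 0, 4.10 and 4.33 reads in recent KO replicates 1 to 5, and the groups overlapped. Of the others, Aff4-207 had 1.82 and 4.28 reads in WT replicates 2 and 3, Aff4-203 had 2.27 reads in WT replicate 4, and Aff4-202 had 3.52 reads in recent KO replicate 4. All other samples gave these transcripts 0 reads. Summed, the transcripts other than Aff4-201 held 7.89 to 19.5 reads per WT sample and 0 to 9.64 per recent KO sample.

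On the TPM scale those few reads made up most of Aff4 in WT samples. Aff4-201 was at 0.494, 0.603, 0.551, 0.511 and 0.733 TPM in WT replicates 1 to 5. It was at 0.449, 0.493, 0.559, 0.659 and 0.574 TPM in recent KO replicates 1 to 5. The leading transcript thus overlapped between groups on a scale that is adjusted for length, at 0.578 ± 0.0963 TPM in WT and 0.547 ± 0.0804 TPM in recent KO samples (SD, n = 5). Aff4-204 was at 1.35, 0.556, 0.596, 0.432 and 1.65 TPM in WT replicates 1 to 5, higher than Aff4-201 in 3 of the 5 samples. In recent KO samples it was at 0.315 TPM in replicate 4 and at 0 TPM in the rest. Summed over the gene, Aff4 was at 1.73 to 2.51 TPM in WT and at 0.480 to 1.30 TPM in recent KO samples, with no overlap. Aff4 was chosen on such length-dependent values, and no background of overlap in TPM was computed over other genes. Aff4-201 held 25.2 to 34.9% of that TPM in the WT samples, against 50.6 to 100% in the recent KO samples.

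**Figure D3:**
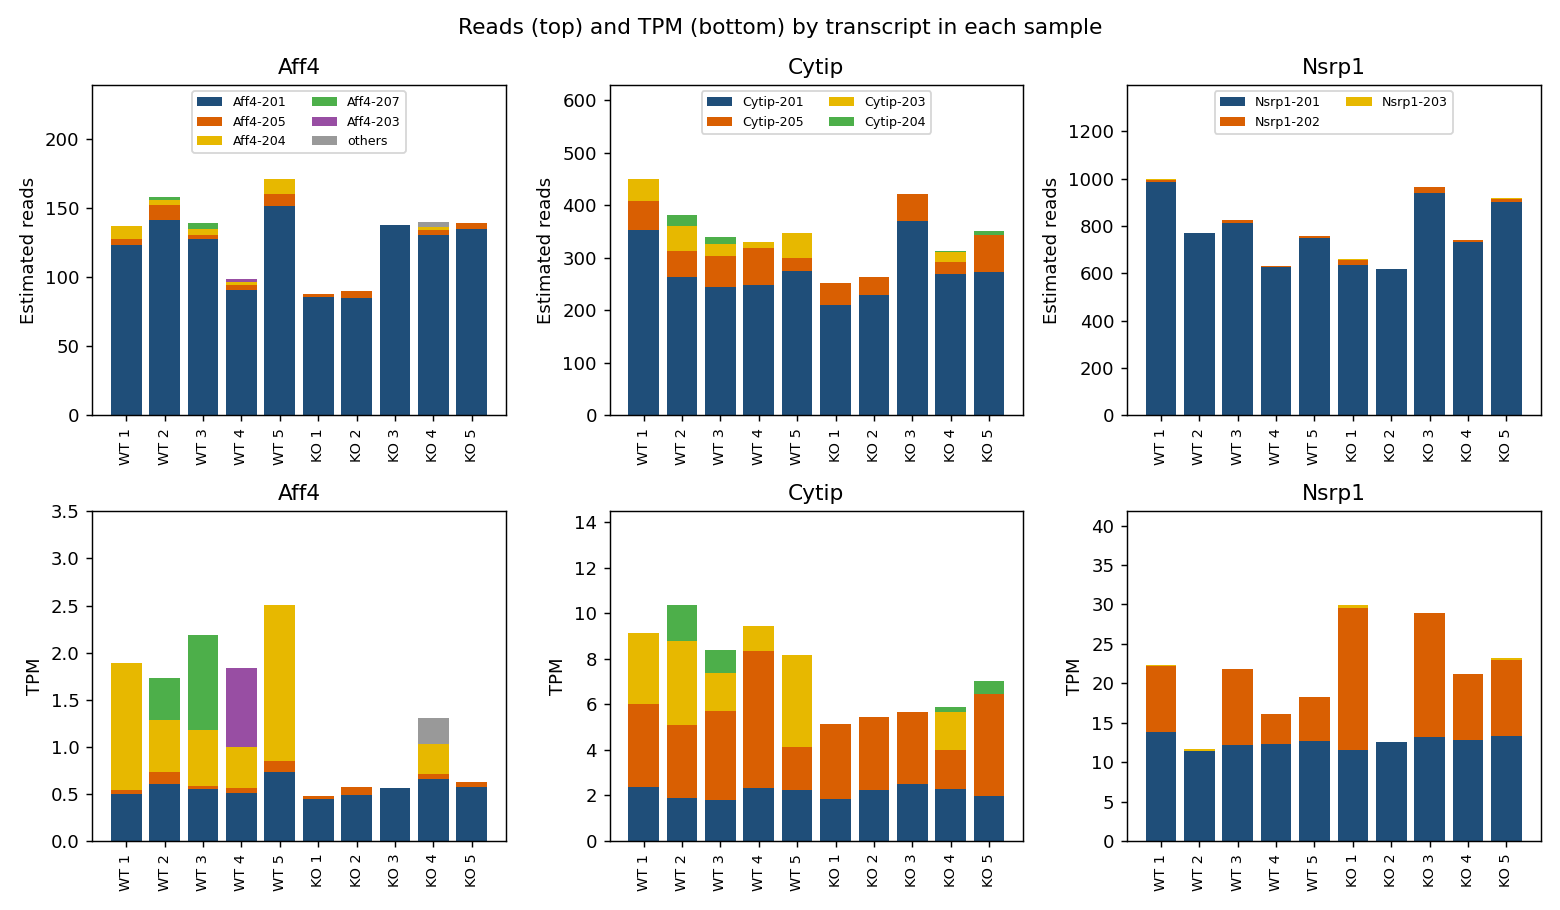
Estimated reads (top) and TPM (bottom) of Aff4, Cytip and Nsrp1 in each WT and recent KO sample, stacked by transcript, with the leading transcript at the base in dark blue. The leading transcript fills nearly all of each bar in reads for Aff4 and Nsrp1 and 68.9 to 87.7% of it for Cytip, whereas in TPM the short transcripts above it are taller in all WT samples of Aff4, in all samples of Cytip, and in some of Nsrp1.

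Cytip showed the same contrast between reads and TPM, with more reads behind it. The summed reads were 449, 382, 339, 329 and 347 in WT replicates 1 to 5, and 252, 263, 421, 313 and 351 in recent KO replicates 1 to 5. Cytip-201 held 352, 263, 245, 248 and 274 of the WT reads and 210, 228, 369, 269 and 272 of the recent KO reads. Both overlapped between groups. The share of Cytip-201 was 78.4, 68.9, 72.2, 75.5 and 79.0% in WT replicates 1 to 5. It was 83.3, 86.8, 87.7, 85.9 and 77.6% in recent KO replicates 1 to 5. Recent KO replicate 5 lay among the WT samples and the other recent KO samples lay above them, with means of 74.8 ± 4.24% and 84.3 ± 4.07% (SD, n = 5).

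The transcripts with the upstream first exon took most of the remaining Cytip reads. Cytip-203 held 41.6, 48.8, 21.9, 11.1 and 47.4 reads in WT replicates 1 to 5. In recent KO samples it held 19.0 reads in replicate 4 and 0 reads in the others. As a share, that was 9.26, 12.8, 6.47, 3.38 and 13.7% in WT samples, and 6.06% in recent KO replicate 4. By counting error alone, a count of 0 allows shares of up to 0.713 to 1.19% in the other recent KO samples. That limit leaves out how reads were divided among overlapping transcripts, so the 0 sets no bound on the true share. Recent KO replicate 4 lay within the WT range, so that the groups overlapped.

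Cytip-205, which has the same first exon as Cytip-203 but for the 10 bases at its start, did not follow it. It held 55.5, 48.6, 59.4, 69.6 and 25.6 reads in WT replicates 1 to 5, and 42.0, 34.7, 51.9, 22.6 and 70.5 reads in recent KO replicates 1 to 5. Its share averaged 14.2 ± 5.27% in WT and 13.9 ± 4.83% in recent KO samples (SD, n = 5), and the groups overlapped. Apart from the inner part of the first exon of Cytip-201, which Cytip-205 alone of the pair has, they overlap in every exon, and how reads were divided between them was not tested. In sum, they held 97.1, 97.4, 81.3, 80.7 and 73.0 reads in WT replicates 1 to 5 and 42.0, 34.7, 51.9, 41.6 and 70.5 reads in recent KO replicates 1 to 5. This sum was 21.0 to 25.5% of the Cytip reads in WT, against 12.3 to 20.1% in recent KO samples. The sum was formed after the values of both transcripts were seen, its nearest values (21.0% in WT replicate 5 and 20.1% in recent KO replicate 5) differed little, and no background over other genes was computed for it. Cytip-204, which lacks the upstream exon, held 21.1 and 13.1 reads in WT replicates 2 and 3, 2.56 and 8.20 reads in recent KO replicates 4 and 5, and 0 reads elsewhere.

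In TPM, Cytip-201 was at 2.38, 1.90, 1.78, 2.35 and 2.24 in WT replicates 1 to 5, and at 1.85, 2.24, 2.52, 2.29 and 1.96 in recent KO replicates 1 to 5. The means were 2.13 ± 0.273 in WT and 2.17 ± 0.269 in recent KO samples (SD, n = 5), and the groups overlapped. Cytip-203 was at 3.16, 3.69, 1.67, 1.10 and 4.06 TPM in WT replicates 1 to 5, and at 1.65 TPM in recent KO replicate 4. Cytip-205 was at 1.90 to 5.99 TPM in WT and 1.71 to 4.49 TPM in recent KO samples. Most of the TPM of the gene thus lay in transcripts other than the leading one in every sample, at 72.7 to 81.7% in WT and 55.6 to 72.2% in recent KO samples. The gene summed to 8.19 to 10.4 TPM in WT and 5.12 to 7.04 TPM in recent KO samples, and these did not overlap. As for Aff4, the gene was chosen on such values, and no background over other genes was computed.

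Nsrp1 was the most abundant of the 3 and the one with the least of its reads outside the leading transcript. The summed reads were 997, 772, 825, 632 and 756 in WT replicates 1 to 5, and 660, 616, 964, 742 and 917 in recent KO replicates 1 to 5. Nsrp1-201 held 98.6, 99.7, 98.4, 99.4 and 99.1% of them in WT samples. It held 96.4, 100, 97.6, 98.6 and 98.3% in recent KO samples. The groups overlapped, with means of 99.0 ± 0.537% and 98.2 ± 1.34% (SD, n = 5).

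Nsrp1-202 held 12.4, 0, 13.3, 4.00 and 6.65 reads in WT replicates 1 to 5 and 21.5, 0, 23.5, 10.1 and 13.5 reads in recent KO replicates 1 to 5. In contrast with the short transcripts of Aff4 and Cytip, its mean was the higher of the 2 in recent KO samples (7.27 ± 5.62 reads in WT, 13.7 ± 9.46 in recent KO; SD, n = 5), and the groups overlapped. In both groups replicate 2 had 0 reads, which by counting error alone allows shares of up to 0.389% in WT and 0.487% in recent KO samples. Nsrp1-203 never exceeded 2.37 reads.

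The TPM of the gene varied between samples mainly with Nsrp1-202. Nsrp1-202 was at 8.30, 0, 9.61, 3.86 and 5.66 TPM in WT replicates 1 to 5, and at 18.1, 0, 15.7, 8.33 and 9.57 TPM in recent KO replicates 1 to 5. Nsrp1-201 was at 11.5 to 13.8 TPM in WT and 11.5 to 13.3 TPM in recent KO samples, almost the same range. The sum over the gene ran from 11.7 to 22.3 TPM in WT and from 12.5 to 29.9 TPM in recent KO samples. In each group the lowest sum belonged to the sample in which Nsrp1-202 had 0 reads.

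**Figure D4:**
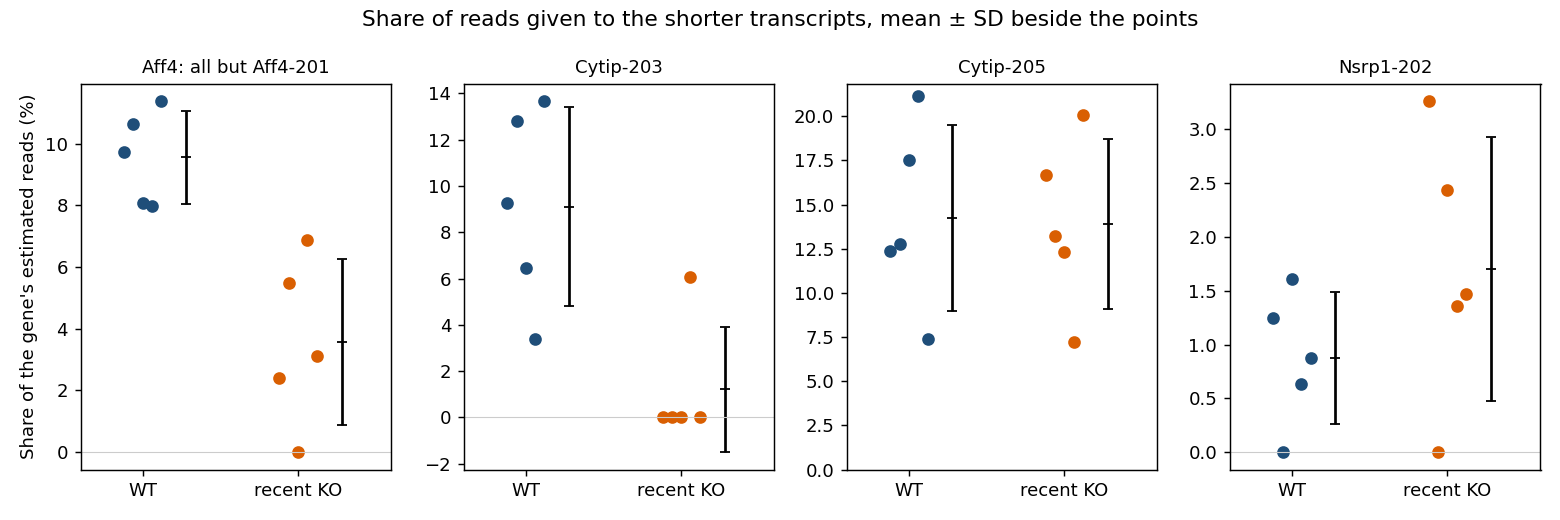
Share of a gene's estimated reads (percent) given to all Aff4 transcripts but Aff4-201, to Cytip-203, to Cytip-205 and to Nsrp1-202, with 1 point for each of 5 WT and 5 recent KO samples and the mean ± SD beside the points. The Aff4 shares do not overlap between groups, whereas the other 3 do, and 4 of the 5 recent KO samples lie at 0 for Cytip-203.

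The difference of each gene depended on the scale as follows. The reads summed per gene gave log2 differences, recent KO over WT, of −0.25 (SE 0.14) for Aff4, −0.22 (SE 0.084) for Cytip and −0.036 (SE 0.064) for Nsrp1 in edgeR's fit. The mean levels on that scale were 8.32 and 6.97 CPM for Aff4, 21.9 and 18.7 CPM for Cytip, and 46.9 and 45.7 CPM for Nsrp1, with WT first. With a length offset, which divides the reads of a gene in each sample by the TPM-weighted mean effective length of its transcripts, the differences became −1.61 (SE 0.25), −0.71 (SE 0.11) and 0.31 (SE 0.23). On log2(TPM + 1), where the added 1 shrinks the change of low genes, they were −0.84 (SE 0.13), −0.57 (SE 0.095) and 0.32 (SE 0.24) in limma's fit. Aff4 and Cytip were thus lower in recent KO samples on all 3 scales, by very different amounts, and Nsrp1 changed its sign.

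The TPM of the leading transcripts alone gave log2 ratios of the group means of −0.081 for Aff4-201, 0.029 for Cytip-201 and 0.024 for Nsrp1-201. Their reads, scaled to CPM, gave log2 ratios of −0.16, −0.051 and −0.050, of which that of Nsrp1-201 was farther from 0 than the difference of the whole gene. The weighted length that enters the offset is computed from the same TPM. It thus moves with the offset differences by construction and is no separate result. For Aff4 it was 2686 to 3827 bases in WT and 5335 to 9811 bases in recent KO samples. For Cytip it was 1541 to 2008 bases in WT and 2086 to 2948 bases in recent KO samples. For Nsrp1 it was 1598 to 2758 bases in WT and 1132 to 2787 bases in recent KO samples.

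**Figure D5:**
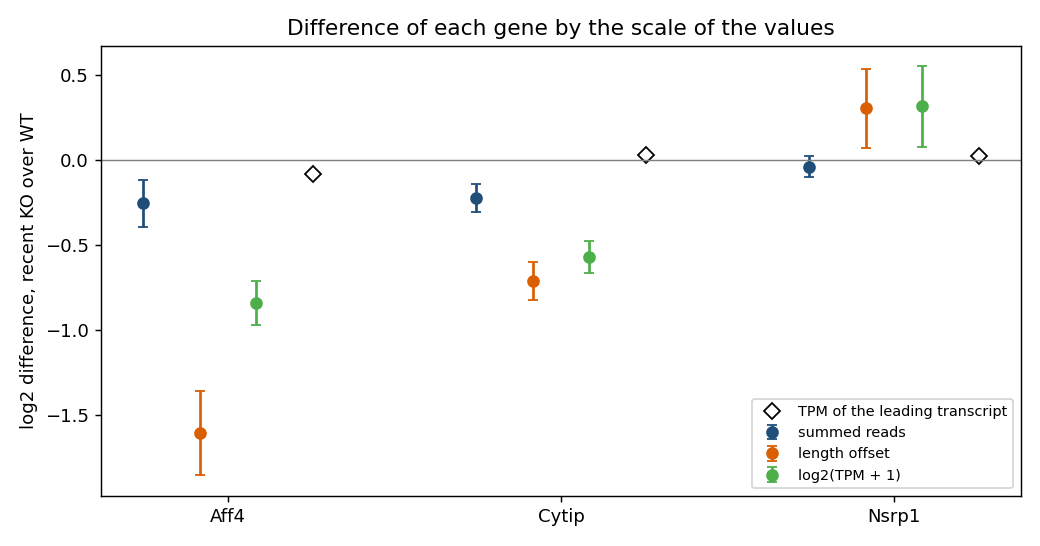
Log2 difference, recent KO over WT, of each gene from summed reads (blue, edgeR), with the length offset (orange, edgeR) and on log2(TPM + 1) (green, limma), each with its standard error, and from the TPM of the leading transcript alone (open diamonds, ratio of the group means). Aff4 runs from −0.25 to −1.61 and Nsrp1 lies on either side of 0, while the leading transcripts lie between −0.081 and 0.029.

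Since the genes were chosen for such a shift, its place among all genes is a description. The length offset moved the log2 difference by −1.35 for Aff4, −0.49 for Cytip and 0.34 for Nsrp1. The median size of the shift over the 12381 tested genes was 0.031, and its 90th and 99th percentiles were 0.20 and 0.67. A shift larger in size than that of Aff4 was found for 6 genes (0.0485%), than that of Cytip for 278 genes (2.25%) and than that of Nsrp1 for 532 genes (4.30%). In all, 680 genes (5.49%) moved by at least 0.3. The shifts were not to one side, with 6407 genes moved up and 5973 moved down.

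Only 5 of the 19 transcripts, namely Cytip-201, Cytip-203, Cytip-205, Nsrp1-201 and Nsrp1-202, entered the test of transcript usage, which needs at least 2 transcripts of a gene above the filter on low counts. For Aff4 fewer passed the filter, so that no usage test could be made. Across the series, edgeR's diffSpliceDGE called 7 of 6637 genes (0.105%) at an adjusted p under 0.05, and 113 (1.7%) at an unadjusted p under 0.05. At the level of transcripts it called 7 of 20752 (0.0337%). For gene expression, 41 of 12381 genes (0.331%) were called by edgeR, of which 15 (0.121%) were higher and 26 (0.21%) were lower in recent KO samples, and 1268 (10.2%) had an unadjusted p under 0.05.

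The genes that work with AFF4, CYTIP and NSRP1 were read from 6 lists with 108 genes, of which 101 were tested. None of them passed edgeR's test at an adjusted p under 0.05. At an unadjusted p under 0.05 there were 7 (6.93%), against 10.2% of all tested genes, and DESeq2 called 0. The median log2 difference of all tested genes was −0.0018. Of the genes of the elongation complex and its partners, among them the P-TEFb kinase Cdk9 and its inhibitor Hexim1, 15 were tested. They ran from −0.30 to 0.46 with a median of 0.026. Of the genes for cytohesins, their partners and beta2 integrins, 13 were tested, which ran from −0.29 to 0.40 with a median of −0.049. Neither list was tested as a whole for a direction.

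The splicing regulators, chiefly SR proteins and the kinases that phosphorylate them, had 22 tested genes that ran from −0.30 to 0.097 with a median of −0.022. The 20 genes of the core spliceosome ran from −0.19 to 0.099 (median −0.017), and the 17 genes of 3′ end processing ran from −0.26 to 0.29 (median 0.048). The 14 genes of nonsense-mediated decay, which degrades transcripts with premature stop codons, ran from −0.16 to 0.20 (median −0.060). For transcript usage, 77 genes of the 6 lists were tested. DiffSpliceDGE called 0 of them at an adjusted p under 0.05 and 1 at an unadjusted p under 0.05, and limma's voom with diffSplice called 0.

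Of the marker lists for other blood cells, only that of macrophages did not overlap between groups. The 6 macrophage markers summed to 16.2 to 35.3 CPM in WT and 38.2 to 69.6 CPM in recent KO samples, with no overlap. Among them the complement genes C1qa, C1qb and C1qc rose, by log2 fold changes of 1.25, 1.35 and 1.59 (edgeR, adjusted p = 0.0406, 0.0160 and 0.0383). The other 3 did not pass edgeR's test. Their log2 differences were 1.58 for Fcna (edgeR, adjusted p = 0.0626), 0.18 for Vcam1 and −0.39 for Adgre1, the last with the lower mean in recent KO samples. The other lists overlapped between groups. The erythroid markers summed to 8.16 to 40.8 CPM in WT and 23.2 to 202 CPM in recent KO samples, the mature neutrophil markers to 97.0 to 386 and 98.3 to 589 CPM, and the dendritic cell markers to 52.5 to 76.2 and 75.8 to 108 CPM. The B cell markers summed to 56.1 to 65.9 CPM in WT and 49.0 to 64.9 CPM in recent KO samples, of which nearly all was Cd79b. The T and NK cell markers summed to 1806 to 2626 and 1631 to 2192 CPM, of which nearly all was Nkg7, while Cd3d, Cd3e, Cd3g, Cd4 and Cd8a each averaged under 1 CPM in both groups. Over all 7 marker lists, that of GMPs included, 36 genes were tested and edgeR called 3. DESeq2 called 7 of the markers, against 156 of 14360 genes in all. These were C1qa, C1qb, C1qc, Fcna and Flt3, which were higher in recent KO samples, and Mpo and Fcgr3, which were lower. At an unadjusted p under 0.05 in edgeR there were 21 markers (58.3%), against 10.2% of all tested genes. The share of reads from mitochondrial genes was 1.44 to 1.83% in WT, against 1.66 to 2.07% in recent KO samples (exact permutation test, p = 0.0397). The part of these differences in the shares of the short transcripts was not tested.

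The transcripts of other genes whose shares ran most alike with the leading transcripts over the 10 samples were picked by Pearson's r. For Aff4-201 they were Tia1-211 (r = 0.94), Clcn3-203 (r = 0.94) and Pisd-211 (r = 0.93). For Cytip-201 they were Atad1-201, Prorsd1-201 and Rpl24-201, each with r = 0.90, and for Nsrp1-201 they were Gng12-204, Hmgn2-212 and Coasy-202, each with r = 0.92. The points share libraries and groups, and the highest of many correlations are given without a test.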

How the data were processed

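Libraries were made from sorted GMPs with a SMARTseq kit, an amplification of full-length cDNA that does not mark strand, and were sequenced as paired-end reads. The authors quantified transcripts of Gencode's M27 annotation with Salmon. The submitters' processing notes name Salmon 1.5.1 and DESeq2 2.11.40.6. For each of the 10 samples the authors deposited estimated counts of reads per transcript, TPM, transcript length and effective length. They also deposited a DESeq2 table of their own comparison per gene (mean normalized count, log2 fold change, its standard error, test statistic, p-value and adjusted p-value), which was not used. All per-sample columns of the other files were used.

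Transcripts were matched by identifier without version to GENCODE M21 on GRCm38, an older annotation. Of 140789 transcripts, 137161 (97.4%) matched, and the others, with 0.348 to 0.390% of the reads, were left out. Lengths of the transcripts of the 3 genes were the same in both. Estimated reads were added up for each gene and then rounded.

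The quasi-likelihood test of edgeR 4.0.16 (R 4.3.3) was used for gene expression, with TMM normalization and filterByExpr (minimum count 10), and its diffSpliceDGE for transcript usage, with Benjamini-Hochberg adjustment at 0.05 over all genes. Limma 3.58.1 was run on log2(TPM + 1) where the mean TPM reached 1. Fits were tested on simulated data, in which diffSpliceDGE made more false calls than its nominal rate. For single values, two-sided exact permutation tests were used, whose smallest p-value with 5 samples in each group is 0.00794. Shares of single samples have exact Clopper-Pearson 95% intervals on rounded reads, and a count of 0 has a limit of 3 counts. Neither covers how reads were divided among the transcripts of a gene. Replicates differed by more than sampling noise (chi-square per gene 6.31 to 41.7), so each sample counted once. Python 3.11.15, pandas 2.3.3 and scipy 1.17.1 were used for the rest.

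The 3 genes and all gene lists were chosen with earlier results of these data known. Named are the 3 genes, their transcripts with at least 5% of the reads in either group mean in every sample, list genes with an adjusted p under 0.05, the 3 transcripts most like each leading transcript, and Mpc2. Aff4-202 to Aff4-207, Cytip-204, Nsrp1-202 and Nsrp1-203 fall outside that rule and were named after their values were seen. So were Mpo, Elane, Kit, Cebpa, Cd34, Fcgr3, Flt3, Cd79b, Nkg7, Cd3d, Cd3e, Cd3g, Cd4, Cd8a, Fcna, Vcam1, Adgre1, Cdk9 and Hexim1. One symbol of the 3′ end processing list matched no gene. The replicate numbers of the groups did not pair the samples, since the correlation of deviations of same-numbered samples was over 0.1 for 0 of 5 pairs. Alternatives were RLE normalization, no filter, a mean of at least 50 reads, the length offset, other tools, a replicate block, coding transcripts only, and leaving out each sample.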

Additional observations from a re-analysis of the deposited data

Results flagged for a closer look

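In 40 groups of 5 values that were examined, 5 values lay far from the other 4 of their group. Some groups share the same reads, and a value beside 4 values tied at 0 is always flagged. The number due by chance is therefore not known. Aff4 summed to 1.30 TPM in recent KO replicate 4, against 0.480 to 0.626 TPM in the other recent KO samples. In the same library Aff4-204 held 1.45% of the Aff4 reads and Cytip-203 held 6.06% of the Cytip reads, against 0% in each of the other recent KO samples. The constant between transcript length and effective length was 344 bases in WT replicate 1, against 302 to 304 in the other WT samples, and 327 bases in recent KO replicate 2, against 281 to 288 in the other recent KO samples.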

How the results depend on the processing

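Summed reads gave log2 differences of −0.25 for Aff4, −0.22 for Cytip and −0.036 for Nsrp1. These became −1.61, −0.71 and 0.31 with the length offset, −0.84, −0.57 and 0.32 on log2(TPM + 1), and −1.47, −0.64 and 0.33 on log2(TPM + 0.1). The leading transcripts alone gave −0.081, 0.029 and 0.024 in TPM and −0.16, −0.051 and −0.050 in reads, alternatives chosen after seeing the data. With each sample left out in turn, summed reads gave −0.33 to −0.17 for Aff4, −0.26 to −0.16 for Cytip and −0.068 to −0.016 for Nsrp1, and the offset gave −1.91 to −1.52, −0.77 to −0.66 and 0.15 to 0.47. The share of the leading transcript, recent KO minus WT in percentage points, was 5.98, 9.48 and −0.88 in reads and 55.7, 14.2 and −11.7 in TPM. Among coding transcripts only it was 0.90 for Aff4 and 0 for Cytip, which has a single coding transcript with reads. Leaving out single samples gave 5.09 to 6.81, 8.01 to 11.1 and −1.33 to −0.43, and leaving out both libraries with unusual effective lengths, chosen after seeing the data, gave 6.41, 9.74 and −1.43. The difference in the length constant was −26.4 to −9.67 bases with single samples left out (exact permutation p = 0.0159 to 0.460, with p = 0.0159 without recent KO replicate 2). It was −18.2 bases without both libraries, chosen after seeing the data (exact permutation p = 0.0286). The difference in weighted transcript length was −0.0025 to 0.0016 on the log2 scale with single samples left out, and changed its sign.

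The count of 41 genes called was 206 without a filter, 156 by DESeq2 and 25 to 91 with a sample left out, with 26 without WT replicate 3, 25 without recent KO replicate 3 or 4, and 91 without recent KO replicate 2. The count of 7 genes called for usage was 140 without a filter, 2 at a mean of at least 50 reads, 13 with limma's voom and diffSplice, and 7 to 26 with a sample left out, with 26 again without recent KO replicate 2, 11 without recent KO replicate 4 or WT replicate 3, 12 without WT replicate 1, 13 without WT replicate 2 and 16 without WT replicate 5. The Mpc2 log2 fold change was −1.40 with the length offset (edgeR adjusted p = 0.0730), −1.35 and −1.38 by limma on log2(TPM + 1) and log2(TPM + 0.1) (adjusted p = 0.167 and 0.214), and −1.60 to −1.31 with a sample left out, where the adjusted p reached 0.05004 without recent KO replicate 1. The replicate numbers did not pair the samples, with correlations of −0.18 to 0.06. A replicate block gave 20 genes for expression, 4 for usage and −1.46 for Mpc2 (edgeR adjusted p = 0.0577). The cause of these changes was not tested. The reads behind the short transcripts limit what can be said of them, since most values of Aff4-204 and Nsrp1-202 lay under 14 reads. A count of 0 allowed shares of up to 1.75 to 3.41% of the Aff4 reads by counting error alone, which leaves out how reads were divided among transcripts.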
